A study of Homo sapiens with 12 samples.

Results

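The BCL2 family is the set of proteins that decides whether the outer membrane of the mitochondrion stays closed or is opened during apoptosis. The 10 genes described here were taken from the count table by their gene names: BCL2, BCL2L1 and MCL1 among the guards, BAX and BAK1 as effectors, and BCL2L11, BBC3, PMAIP1, BID and BAD of the BH3-only class. They are 10 of the 58735 genes in the table, each name matched a single gene, and all 10 had enough counts to be tested in every comparison.

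RNA was sequenced from HK-2, an immortalised line of human proximal tubule epithelium, in 4 groups of 3 samples. The control group received water. The other groups were exposed for 48 h to iohexol at 75 mg I/mL (an iodinated X-ray contrast agent), cisplatin at 5 μM (a platinum drug that crosslinks DNA) or vancomycin at 4 mM (a glycopeptide antibiotic). All samples come from this line alone, and no source used here states whether the 3 samples of a group were separate cultures, so p-values measure the spread between these samples, which may be technical.

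Guards such as BCL2, BCL-xL (from BCL2L1) and MCL1 hold the pore-forming effectors BAX and BAK in check. BH3-only proteins report damage or stress: they bind the guards, and some of them engage the effectors directly, after which BAX and BAK perforate the mitochondrial outer membrane and cytochrome c escapes to start the caspases. Proximal tubule cells are rich in mitochondria, and loss of tubule cells by this route is a known feature of nephrotoxic injury. Much of the family's control acts on the proteins, through binding, phosphorylation, cleavage or degradation, which RNA counts do not show.

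Levels are given as CPM, counts scaled to a common library total with TMM factors, which allow for a few very abundant genes. Levels of different genes are compared only after division by gene length, as CPM per kb. Differences are log2 fold changes ± standard error (SE) from edgeR's quasi-likelihood test on the counts of 1 drug group and the control group, and a member is called when its p, adjusted by the Benjamini-Hochberg method over all genes tested, was below 0.05. The 3 comparisons share the same 3 control samples. In RNA from whole cultures, fewer cells of a kind and less RNA per cell cannot be told apart.

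Total counts were 14057282 to 18177109 per library, and a floor of 3 counts lay at 0.177 to 0.218 CPM, which covers counting error only. The lowest count of any member was 85 (BAD, iohexol replicate 3) and the highest 6103 (MCL1, cisplatin replicate 3). Libraries differed in a tilt by base composition, taken as the median log2 deviation from the mean of the 12 libraries of genes with a transcript GC above 56.3% minus that of genes below 42.1%. It was −0.46 in control replicate 1 and −0.55 in iohexol replicate 3, between −0.10 and 0.063 in the other control, iohexol and cisplatin libraries, and 0.22 to 0.49 in the vancomycin libraries. Control replicate 1 and iohexol replicate 3 therefore stood apart from their groups, and results are also given without them or with a per-library GC correction where that changed a call. Of 10 proximal tubule markers, GGT1 and MME were at 190 and 62.8 CPM in the control group (means of 3), whereas LRP2, SLC22A6 and SLC22A2 had 0 counts there. The 4 leukocyte markers summed to at most 2.06 CPM in any library and the 3 endothelial markers to at most 4.21, with CDH5 and VWF near 0. The 4 fibroblast markers summed to 37.4 to 47.4 CPM in control, 28.4 to 31.7 in iohexol, 50.2 to 54.6 in cisplatin and 69.5 to 78.3 in vancomycin libraries. They did not move as 1, since COL1A1 was highest with cisplatin (mean 48.7 CPM, against 41.8 with vancomycin and 30.6 in control) and DCN was lowest there (2.70 CPM, against 12.3 in control and 30.5 with vancomycin). The 5 epithelial markers summed to 763 to 852 CPM in control, 634 to 770 in iohexol, 1229 to 1281 in cisplatin and 1228 to 1346 in vancomycin libraries. These sums are mostly KRT8 and KRT18, and the set did not move as 1 either. KRT8 had means of 494 CPM in control, 412 with iohexol, 844 with cisplatin and 821 with vancomycin. EPCAM went the other way, at 101, 118, 35.4 and 76.9 CPM, and CDH1 was near 0 in every group. The 10 proximal tubule markers, mostly GGT1 and MME, summed to 231 to 274 CPM in control, 237 to 269 in iohexol, 193 to 211 in cisplatin and 451 to 478 in vancomycin libraries. With iohexol, GGT1 was lower (mean 147 CPM) and MME higher (101 CPM) than in control. They were at 169 and 29.3 CPM with cisplatin and at 363 and 93.1 CPM with vancomycin. CUBN, AQP1, SLC34A1, SLC5A2 and ANPEP had means of at most 1.44 CPM in control, and CUBN and ANPEP were at 1.98 and 4.81 CPM with iohexol. The part of these shifts in the members' values was not tested.

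With iohexol, 4 of the 10 members were called, 2 higher (BCL2L11, PMAIP1) and 2 lower (MCL1, BID), while 11.2% of all genes tested were called higher and 9.77% lower. With cisplatin, 7 were called, 3 higher (MCL1, BAK1, PMAIP1) and 4 lower (BCL2, BCL2L1, BBC3, BID), against 29.2% and 30.6% of all genes. With vancomycin, 8 were called, 6 higher (BAX, BAK1, BBC3, PMAIP1, BID, BAD) and 2 lower (BCL2, BCL2L1), against 29.0% and 28.8%. The iohexol count was 1 (MCL1) when control replicate 2 or control replicate 3 was left out and 6 without iohexol replicate 3, when BAX and BBC3 joined. It was 5 with the GC correction and 6 without control replicate 1 and iohexol replicate 3 together, alternatives chosen after seeing the data. Leaving out single libraries gave 5 to 8 calls with cisplatin and 7 to 8 with vancomycin. The median log2 fold change of the 10 members was 0.015 with iohexol, 0.17 with cisplatin and 0.52 with vancomycin, where that of all genes tested was 0.012, 0.0074 and −0.0084.

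Under the stricter rule that also asks for a log2 fold change above 1 or below −1, no member was called with iohexol, 1 with cisplatin (BCL2) and 5 with vancomycin (PMAIP1, BBC3 and BAD higher, BCL2 and BCL2L1 lower). Among all genes tested this rule called 4.02% higher and 1.25% lower with iohexol, 7.62% and 8.72% with cisplatin, and 10.8% and 7.65% with vancomycin. The 3 drug and 3 control libraries did not overlap for 4 members with iohexol, 7 with cisplatin and 9 with vancomycin, and for 37.9%, 65.1% and 63.2% of all genes tested.

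**Figure D1:**
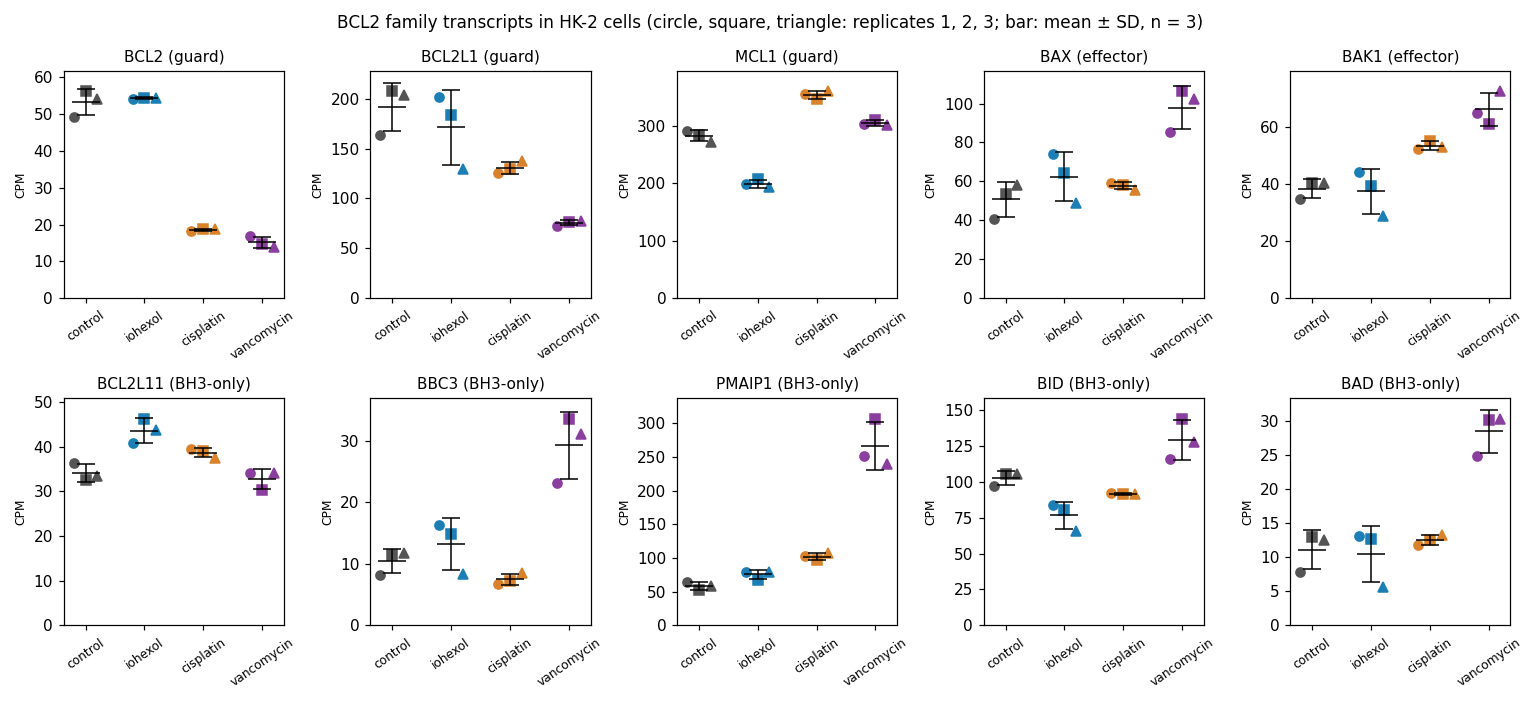
Level of each of the 10 genes in CPM (linear axis from 0) in the 12 libraries, by group; circles, squares and triangles are replicates 1, 2 and 3 and the black bar is the mean ± SD of 3. BCL2 was low with cisplatin and vancomycin, and PMAIP1, BBC3 and BAD in the 3 vancomycin libraries lay above every other library.

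BCL2 is the founding guard of the family, and its gene lies on chromosome 18 (chr18:63123346-63320128, minus strand, GRCh38). Its level was 49.3, 56.2 and 54.2 CPM in the control group and 54.0, 54.3 and 54.5 CPM with iohexol. It was 18.4, 18.7 and 18.8 CPM with cisplatin and 16.9, 14.8 and 13.8 CPM with vancomycin. The control and iohexol libraries overlapped, and every cisplatin and vancomycin library lay below all of them. BCL2 fell by 1.52 ± 0.087 on the log2 scale with cisplatin (adjusted p = 1.04e-10, edgeR) and by 1.85 ± 0.12 with vancomycin (adjusted p = 2.56e-12, edgeR), to 0.349 and 0.277 times the control level. With iohexol the difference was 0.046 ± 0.093 (adjusted p = 0.767, edgeR). The cisplatin libraries were higher than the vancomycin libraries by 0.30 ± 0.10 (adjusted p = 0.0167, edgeR), and this difference lost its call without vancomycin replicate 3 (adjusted p = 0.0915, edgeR).

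BCL2L1 encodes BCL-xL, a guard that holds BAX and BAK, and lies on chromosome 20 (chr20:31664452-31723989, minus strand). Its level was 164, 207 and 204 CPM in the control group, 202, 184 and 129 CPM with iohexol, 126, 129 and 138 CPM with cisplatin, and 72.6, 76.9 and 77.7 CPM with vancomycin. The cisplatin libraries lay below all control libraries and the vancomycin libraries below all others, while iohexol replicate 3 reached down among the cisplatin libraries. BCL2L1 fell by 0.55 ± 0.078 with cisplatin (adjusted p = 1.06e-05, edgeR) and by 1.38 ± 0.10 with vancomycin (adjusted p = 1.74e-11, edgeR). With iohexol the log2 difference was −0.14 ± 0.15 (adjusted p = 0.557, edgeR), and without iohexol replicate 3 it was 0.030. The antisense gene ABALON covers 43% of the exon bases of BCL2L1 and had 1198 counts over the 12 libraries against 26459 for BCL2L1. The strand setting of the counting is not given in the sources used here, and gene counts do not separate BCL-xL from the short proapoptotic splice form BCL-xS.

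MCL1 encodes a guard with a short protein half-life that is the preferred partner of the BH3-only protein NOXA, and lies on chromosome 1 (chr1:150574551-150579738, minus strand). Its level was 292, 285 and 273 CPM in the control group and 198, 207 and 194 CPM with iohexol. It was 356, 348 and 360 CPM with cisplatin and 304, 312 and 301 CPM with vancomycin. All 4 groups were separate, in the order iohexol, control, vancomycin, cisplatin. MCL1 fell by 0.49 ± 0.081 with iohexol (adjusted p = 0.00134, edgeR) and rose by 0.32 ± 0.056 with cisplatin (adjusted p = 8.23e-05, edgeR). The step from control to vancomycin was 0.067 ± 0.082 (adjusted p = 0.506, edgeR), and with the GC correction it was 0.18 (adjusted p = 0.0139, edgeR). In the iohexol comparison MCL1 kept its call whichever of the 6 libraries was left out, at −0.53 to −0.46 and adjusted p of 0.000211 to 0.0124 (edgeR).

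BAX is a cytosolic effector that moves to mitochondria when activated, and lies on chromosome 19 (chr19:48954815-48961798, plus strand). Its level was 40.6, 53.7 and 58.1 CPM in the control group, 74.3, 64.2 and 49.0 CPM with iohexol, 59.2, 58.1 and 55.7 CPM with cisplatin, and 85.3, 106 and 102 CPM with vancomycin. The vancomycin libraries lay above every other library and the other 3 groups overlapped. BAX rose by 0.90 ± 0.12 with vancomycin (adjusted p = 4.02e-07, edgeR), and by 0.65 with the GC correction (adjusted p = 4.16e-06, edgeR). The log2 difference with iohexol was 0.32 ± 0.16 (adjusted p = 0.19, edgeR) and with cisplatin 0.18 ± 0.10 (adjusted p = 0.132, edgeR). Both differences depend on the libraries and the scaling used. Without iohexol replicate 3 the iohexol difference was 0.47 (adjusted p = 0.00562, edgeR), and without both that library and control replicate 1 it was 0.33 (adjusted p = 0.00175, edgeR). With the GC correction it was 0.30 (adjusted p = 0.0269, edgeR). The cisplatin difference was 0.27 without control replicate 3 (adjusted p = 0.0254, edgeR) and 0.40 with the TMM factors left out (adjusted p = 0.00287, edgeR).

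The promoter of BAX is shown because of its repeated E-boxes (CACGTG, the same on both strands), which are bound by basic helix-loop-helix factors such as MYC and USF. The sequence runs from 250 bases before to 50 bases after the RefSeq start (GRCh38.p14, chr19:48954625-48954924, plus strand), with the E-boxes in capitals:
BAX promoter: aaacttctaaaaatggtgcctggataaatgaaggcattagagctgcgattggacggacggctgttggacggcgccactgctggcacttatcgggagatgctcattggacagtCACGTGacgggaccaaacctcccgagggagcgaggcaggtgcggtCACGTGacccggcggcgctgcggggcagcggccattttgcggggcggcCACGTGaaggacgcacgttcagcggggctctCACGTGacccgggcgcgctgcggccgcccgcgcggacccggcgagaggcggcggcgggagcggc
The 4 E-boxes begin at −138, −93, −45 and −14, counted from the start. Of 35116 RefSeq promoters of this length, 7.26% held at least 1 E-box and 5 held 4 or more (0.0142%). The first also overlaps the only TGACG in the window (searched on both strands). MYC itself fell with all 3 drugs, by 0.42 ± 0.080 with iohexol, 0.72 ± 0.054 with cisplatin and 0.95 ± 0.083 with vancomycin (adjusted p = 0.00311, 3.82e-09 and 8.58e-10, edgeR). A match of letters is a description and not a site of binding.

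BAK1 encodes BAK, the effector that resides in the mitochondrial outer membrane, on chromosome 6 (chr6:33572547-33580293, minus strand). Its level was 34.7, 40.4 and 40.4 CPM in the control group, 44.4, 39.3 and 28.9 CPM with iohexol, 52.2, 55.3 and 53.2 CPM with cisplatin, and 65.0, 61.3 and 72.6 CPM with vancomycin. The 3 vancomycin libraries were the highest, the 3 cisplatin libraries came next, and control and iohexol overlapped. BAK1 rose by 0.47 ± 0.081 with cisplatin (adjusted p = 7.18e-05, edgeR) and by 0.74 ± 0.11 with vancomycin (adjusted p = 1.99e-06, edgeR), and by 0.37 and 0.48 with the GC correction (adjusted p = 2.27e-05 and 3.91e-05, edgeR). With iohexol the log2 difference was −0.017 ± 0.15 (adjusted p = 0.951, edgeR), which became 0.14 without iohexol replicate 3 and 0.0031 without control replicate 2. Of the 31-base stretches of BAK1 transcripts, 17.1% also occur in the pseudogenes BAK1P1 and BAK1P2, so part of its reads may have been split or dropped in counting.

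Of the 2 effectors, neither was called with iohexol, BAK1 was called with cisplatin and both were called with vancomycin. The direct comparison of cisplatin with iohexol did not call BAX (−0.11 ± 0.13, adjusted p = 0.497, edgeR).

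PMAIP1 encodes NOXA, a BH3-only protein that binds MCL1 and promotes its degradation, and lies on chromosome 18 (chr18:59899948-59904306, plus strand). Its level was 64.1, 52.5 and 59.3 CPM in the control group and 79.7, 67.6 and 80.0 CPM with iohexol. It was 103, 96.8 and 107 CPM with cisplatin and 252, 307 and 240 CPM with vancomycin. All 4 groups were separate, in the order control, iohexol, cisplatin, vancomycin. PMAIP1 rose by 2.14 ± 0.10 with vancomycin, 4.41 times the control level (adjusted p = 3.01e-14, edgeR), by 0.80 ± 0.079 with cisplatin (adjusted p = 1.39e-07, edgeR) and by 0.39 ± 0.11 with iohexol (adjusted p = 0.0258, edgeR). It was the only member called higher with each drug. The iohexol call was lost without iohexol replicate 1 (0.34, adjusted p = 0.0962), without control replicate 2 (0.30, adjusted p = 0.172) and without control replicate 3 (0.38, adjusted p = 0.0895, all edgeR), and the vancomycin difference stayed between 2.04 and 2.22 whichever of its 6 libraries was left out. Its transcript is the poorest in GC of the 10 (37.2%), and with the GC correction the vancomycin difference was 2.43.

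The promoter of PMAIP1 is shown as that of the member with the highest rise. The window covers 250 bases before to 50 after the RefSeq start (GRCh38.p14, chr18:59899746-59900045, plus strand), and the capitals mark a TGACG read on the other strand, the core of the element bound by ATF and CREB factors:
PMAIP1 promoter: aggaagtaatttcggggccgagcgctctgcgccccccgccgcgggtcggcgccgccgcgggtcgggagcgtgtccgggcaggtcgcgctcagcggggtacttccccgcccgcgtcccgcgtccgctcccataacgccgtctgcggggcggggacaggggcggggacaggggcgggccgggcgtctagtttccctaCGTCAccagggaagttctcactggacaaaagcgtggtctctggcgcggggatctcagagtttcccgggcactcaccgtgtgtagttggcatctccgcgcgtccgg
The element begins at −55, downstream of 4 GC boxes (GGGCGG, bound by SP1 and its relatives) that begin at −146, −106, −94 and −82. Of the 35116 promoters, searched on both strands, 24.6% held a TGACG and 45% a GC box. ATF3, a stress-induced factor of the ATF family, rose by 1.62 ± 0.079 with cisplatin (adjusted p = 1.34e-11, edgeR) and by 1.79 ± 0.11 with vancomycin (adjusted p = 7.3e-13, edgeR). With iohexol, where PMAIP1 was called higher, ATF3 was not called (mean 28.0 CPM, against 23.4 in control). Its means with cisplatin and vancomycin were 72.3 and 83.7 CPM, where those of PMAIP1 were 102 and 266. A link between ATF3 and PMAIP1 was not tested. RefSeq promoters were matched for 9 of the 10 members. In the first listed start of each, a TGACG also stood in the windows of BCL2, BCL2L1, BAX and BAD, members that did not move alike.

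BBC3 encodes PUMA, a BH3-only protein that binds all the guards. It lies on chromosome 19 (chr19:47220822-47232766, minus strand) and was lowly expressed in control cells. The levels were 8.27, 11.4 and 11.7 CPM in the control group, 16.4, 14.9 and 8.42 CPM with iohexol, 6.78, 7.20 and 8.51 CPM with cisplatin, and 23.2, 33.6 and 31.1 CPM with vancomycin. The vancomycin libraries lay above all others, and the cisplatin libraries overlapped the control group through control replicate 1. BBC3 rose by 1.44 ± 0.15 with vancomycin (adjusted p = 1.75e-08, edgeR) and fell by 0.49 ± 0.15 with cisplatin (adjusted p = 0.0121, edgeR). The cisplatin call was lost without cisplatin replicate 1 (−0.42, adjusted p = 0.0578, edgeR), in the fit of all 4 groups (adjusted p = 0.0647, edgeR) and when the TMM factors were left out (−0.27, adjusted p = 0.146, edgeR). With iohexol the log2 difference was 0.36 ± 0.23 (adjusted p = 0.305, edgeR), and without iohexol replicate 3 it was 0.60 (adjusted p = 0.0066, edgeR). Without that library and control replicate 1 it was 0.45 (adjusted p = 0.0125, edgeR). BBC3 has the most GC-rich transcript of the 10 (69.7%), and with the GC correction the vancomycin difference was 1.15 (adjusted p = 2.99e-07, edgeR).

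BAD is the BH3-only protein that survival kinases hold inactive by phosphorylation, and lies on chromosome 11 (chr11:64269830-64284704, minus strand). Its level was 7.77, 13.0 and 12.6 CPM in the control group, 13.1, 12.7 and 5.68 CPM with iohexol, 11.8, 12.6 and 13.3 CPM with cisplatin, and 24.8, 30.2 and 30.3 CPM with vancomycin. The vancomycin libraries were the highest, the other groups overlapped, and the lowest values belonged to iohexol replicate 3 and control replicate 1, the 2 libraries with the lowest GC tilt. BAD rose by 1.31 ± 0.15 with vancomycin (adjusted p = 1.02e-07, edgeR), and by 1.02 with the GC correction (adjusted p = 1.13e-06, edgeR). With iohexol the log2 difference was −0.068 ± 0.28 (adjusted p = 0.892, edgeR) and with cisplatin 0.17 ± 0.16 (adjusted p = 0.373, edgeR), and each crossed 0 when a single library was left out (0.23 without iohexol replicate 3, −0.032 without control replicate 1). GPR137, on the opposite strand, covers 23.7% of the exon bases of BAD and had 4494 counts over the 12 libraries against 2936 for BAD.

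BID is cut by caspase-8 into the fragment that links death receptors to mitochondria, and its gene lies on chromosome 22 (chr22:17734138-17774770, minus strand). Its level was 97.0, 105 and 105 CPM in the control group, 83.9, 80.2 and 65.8 CPM with iohexol, 92.1, 91.4 and 91.1 CPM with cisplatin, and 116, 144 and 128 CPM with vancomycin. All 4 groups were separate, in the order iohexol, cisplatin, control, vancomycin. BID fell by 0.40 ± 0.11 with iohexol (adjusted p = 0.0202, edgeR) and rose by 0.29 ± 0.092 with vancomycin (adjusted p = 0.00929, edgeR). With cisplatin it was called lower, at −0.16 ± 0.064 (adjusted p = 0.0356, edgeR), and turned to 0.055 when the TMM factors were left out. These calls rest on few libraries. The iohexol call was lost without control replicate 2 (adjusted p = 0.0746) or 3 (adjusted p = 0.0581), the vancomycin call without vancomycin replicate 2 (adjusted p = 0.056), and the cisplatin call when any of the 3 cisplatin libraries or control replicate 2 or 3 was left out (adjusted p of 0.0644 to 0.117, all edgeR).

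BCL2L11 encodes BIM, a BH3-only protein that binds every guard and can activate BAX directly, and lies on chromosome 2 (chr2:111119378-111168447, plus strand). Its level was 36.4, 32.6 and 33.3 CPM in the control group, 40.8, 46.2 and 43.7 CPM with iohexol, 39.4, 39.1 and 37.4 CPM with cisplatin, and 34.0, 30.3 and 34.0 CPM with vancomycin. The iohexol libraries were the highest, followed by cisplatin, and the control and vancomycin libraries overlapped. BCL2L11 rose by 0.37 ± 0.11 with iohexol (adjusted p = 0.0265, edgeR), a call that was lost without iohexol replicate 2 (adjusted p = 0.122), control replicate 2 (0.159) or control replicate 3 (0.113, all adjusted p from edgeR). The log2 difference with cisplatin was 0.18 ± 0.084 (adjusted p = 0.0754, edgeR). It was called without control replicate 1 (0.22, adjusted p = 0.0144), with the GC correction (0.24, adjusted p = 0.00463), with at least 10 counts required in every sample (0.21, adjusted p = 0.0406) and with the TMM factors left out (0.40, adjusted p = 0.000509, all edgeR). The difference with vancomycin was −0.099 ± 0.11 (adjusted p = 0.458, edgeR). It is a member with little range, with all 12 libraries between 30.3 and 46.2 CPM. MIR4435-2HG covers 10.9% of its exon bases on the opposite strand and had 4499 counts over the 12 libraries against 6958 for BCL2L11.

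**Figure D2:**
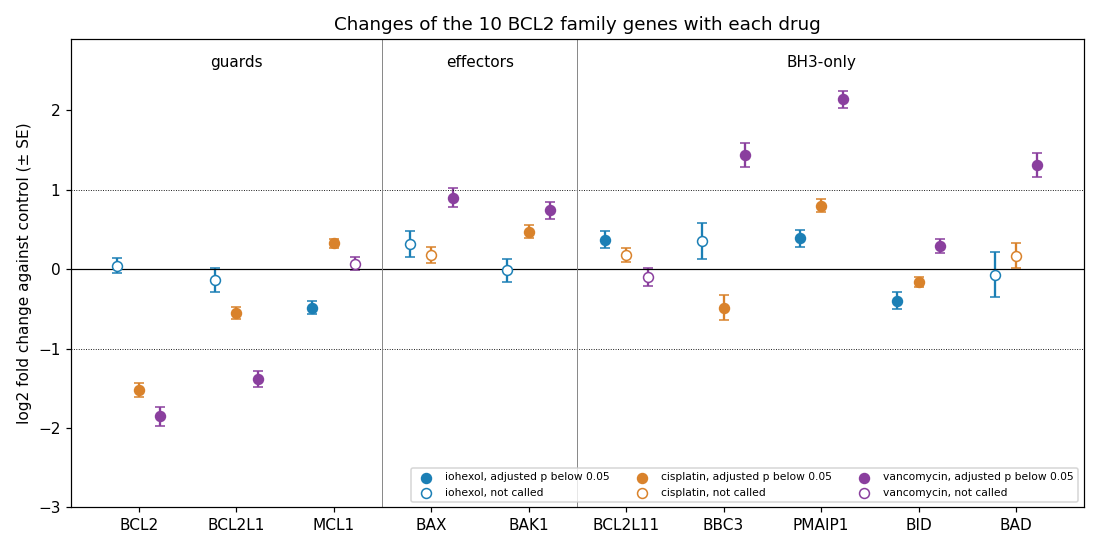
Log2 fold change against control (± SE, 3 against 3 libraries) of each member with each drug; filled points had an adjusted p below 0.05 and open points did not, and dotted lines mark −1 and 1. Vancomycin points were the most spread, from −1.85 (BCL2) to 2.14 (PMAIP1), and the filled cisplatin point of BID (−0.16) turned to 0.055 with the TMM factors left out.

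**Figure D3:**
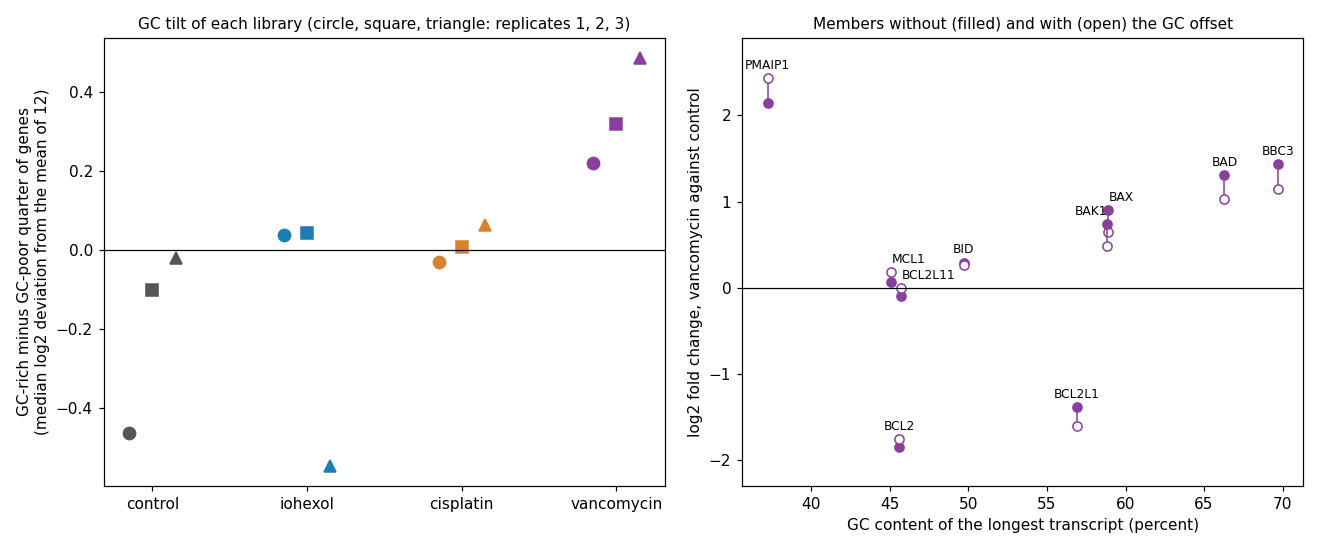
Left, GC tilt of each library (median log2 deviation of genes above 56.3% transcript GC minus that of genes below 42.1%); circles, squares and triangles are replicates 1, 2 and 3. Right, log2 fold change of each member with vancomycin against the GC content of its longest transcript, without (filled) and with (open) the GC correction: the 3 vancomycin libraries tilt upward (0.22 to 0.49), and the 8 called members keep their sign and their call.

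Base composition moved with the vancomycin group, and the members that rose most besides PMAIP1 are GC-rich: transcript GC was 69.7% for BBC3, 66.3% for BAD, 58.9% for BAX and 58.8% for BAK1, against 45.1% for MCL1 and 45.6% for BCL2. With the GC correction, chosen after seeing the data, all 8 calls were kept with the same sign and MCL1 joined them. Every vancomycin library had a higher tilt than every other library, and the correction was fitted to these same libraries. A tilt of the libraries and a drug effect linked to GC therefore cannot be told apart. The corrected differences of BAX, BAK1, BBC3 and BAD were smaller and those of PMAIP1 and BCL2L1 (−1.61) larger in size.

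Per kb, the guards were the most abundant class in control cells, at 127 ± 6.17 CPM per kb (SD, n = 3) against 64.2 ± 1.76 for the BH3-only class and 37.1 ± 4.98 for the effectors. With vancomycin the BH3-only sum was 179 ± 20.5 and the effector sum 67.8 ± 5.05, whereas the guard sum was 94.0 ± 1.51. Every vancomycin library held more BH3-only than guard transcript per kb, and every library of the other groups held less. Most of the BH3-only sum with vancomycin was PMAIP1, at 119 CPM per kb. BID, BAD, BBC3 and BCL2L11 were at 29.1, 16.7, 9.21 and 4.92 CPM per kb there, so the excess over the guards rests on PMAIP1. With cisplatin the sums were 122 ± 2.95 for guards, 81.8 ± 2.53 for BH3-only and 46.5 ± 0.930 for effectors, and with iohexol 102 ± 12.3, 68.0 ± 5.19 and 41.1 ± 8.49. These sums and the shares that follow are descriptions without a test.

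Among guards, MCL1 made up 51.1% ± 3.79 (SD, n = 3) of the summed counts per kb in control cells, 45.1% ± 4.80 with iohexol, 66.4% ± 0.839 with cisplatin and 74.3% ± 0.586 with vancomycin. BCL2L1 held 45.4% ± 3.73 in control cells and 24.3% ± 0.725 with vancomycin, and BCL2 was the least abundant guard in every group, at 3.56% ± 0.064 in control cells and 1.29% ± 0.027 with cisplatin. The guard pool was therefore shared about evenly by MCL1 and BCL2L1 in control cells and was mostly MCL1 with cisplatin and vancomycin. BAX and BAK1 stayed close to each other per kb, with BAX at 47.9% to 58.7% of their sum in the group means. Of the BH3-only class, PMAIP1 held 40.9% ± 4.19 in control cells and 66.5% ± 2.46 with vancomycin, and BID went from 35.9% ± 1.42 to 16.2% ± 0.679. In raw counts, not divided by gene length, BID led in control cells (47.2%, against 27.1% for PMAIP1). BBC3 and BAD kept nearly the same share per kb with vancomycin as in control cells (5.14% against 5.12%, and 9.34% against 10.1%), since their levels rose along with the class.

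**Figure D4:**
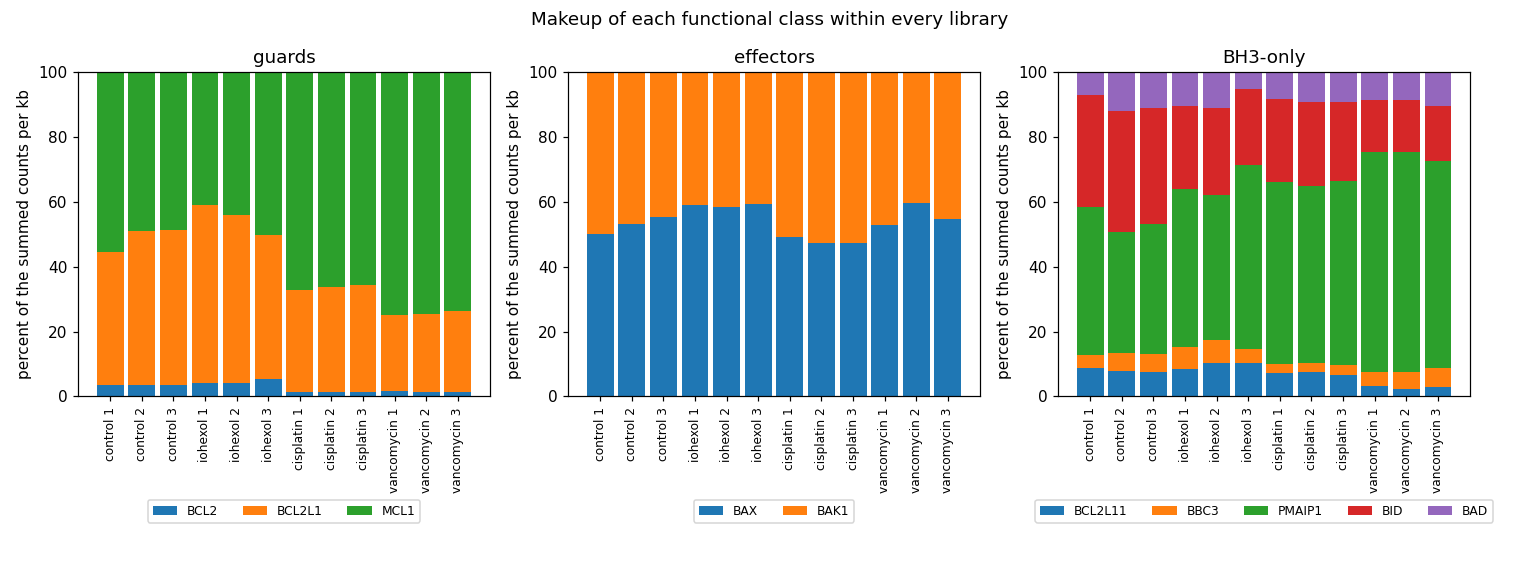
Share (percent) of each gene in the summed counts per kb of its class in each of the 12 libraries, for the guards, the effectors and the BH3-only genes. MCL1 fills 73.7% to 74.8% of the guard bar in the vancomycin libraries against 48.6% to 55.4% in the control libraries.

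The log2 ratio of BAX to BCL2 per kb, often used as a summary of the balance between effectors and guards, was 2.10 ± 0.19 (SD, n = 3) in control cells, 2.37 ± 0.31 with iohexol, 3.82 ± 0.061 with cisplatin and 4.88 ± 0.31 with vancomycin. With cisplatin its shift of 1.71 came mostly from BCL2, and with vancomycin its shift of 2.77 combined the fall of BCL2 with the rise of BAX. The ratio of PMAIP1 to MCL1 per kb, the pair of NOXA and its partner, was −1.31 ± 0.14 in control cells, −0.43 ± 0.18 with iohexol, −0.83 ± 0.045 with cisplatin and 0.76 ± 0.16 with vancomycin on the log2 scale. Here iohexol lay above cisplatin in all 3 libraries, PMAIP1 having risen while MCL1 fell, and PMAIP1 exceeded MCL1 per kb in the vancomycin libraries alone. That last order rests on the division by gene length. In raw counts the log2 ratio of PMAIP1 to MCL1 was −0.33 to −0.020 in the vancomycin libraries. Neither ratio depends on the scaling between libraries, but the ratios, sums and shares were taken without the GC correction. Transcript GC was 58.9% for BAX and 45.6% for BCL2, and 37.2% for PMAIP1 and 45.1% for MCL1. With that correction the vancomycin differences from control were 0.65 for BAX, −1.76 for BCL2, 2.43 for PMAIP1 and 0.18 for MCL1.

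Drugs were also compared directly, by contrasts in an edgeR fit of all 12 libraries. Cisplatin and iohexol differed for 7 members, 4 higher with cisplatin and 3 lower, against 26.0% and 27.9% of all genes, and the libraries did not overlap for 6 members, against 60.9% of all genes. MCL1 was 0.83 ± 0.068 higher with cisplatin (adjusted p = 3.13e-09, edgeR) and BCL2 was lower, at −1.54 ± 0.10 (adjusted p = 7.1e-11, edgeR). BAX, BCL2L11 and BAD were not called. BID, at 0.26 ± 0.10 (adjusted p = 0.0283), was not called when iohexol replicate 3 or any of the cisplatin libraries was left out (adjusted p of 0.0626 to 0.136), BCL2L1, at −0.39 ± 0.12 (adjusted p = 0.0106), not without iohexol replicate 1 (adjusted p = 0.0865), and BAX was called without iohexol replicate 3 (−0.27, adjusted p = 0.0478, all edgeR).

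Vancomycin and iohexol differed for all 10 members, 7 higher with vancomycin and 3 lower, against 29.0% and 27.6% of all genes. PMAIP1 differed by 1.81 ± 0.10 (adjusted p = 1.2e-11, edgeR), BAD by 1.44 ± 0.22 (adjusted p = 1.03e-05, edgeR) and BBC3 by 1.15 ± 0.19 (adjusted p = 4.06e-05, edgeR). The 3 that were lower with vancomycin were BCL2, BCL2L1 and BCL2L11, at −1.84, −1.18 and −0.41. The libraries of the 2 groups did not overlap for any of the 10 members, against 59.4% of all genes, and the number called stayed at 10 whichever library was left out.

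Cisplatin and vancomycin differed for all 10 members, 4 higher with cisplatin and 6 lower, against 30.0% and 34.7% of all genes, and no member overlapped between the groups, against 71.2% of all genes without overlap. All 3 guards and BCL2L11 were higher with cisplatin, and both effectors and the other 4 BH3-only genes were higher with vancomycin. BBC3 showed the widest gap, −1.96 ± 0.20 (adjusted p = 4.69e-08, edgeR), with opposite signs against control for the 2 drugs, followed by PMAIP1 at −1.38 ± 0.10 (adjusted p = 3.08e-10, edgeR) and BAD at −1.18 ± 0.21 (adjusted p = 5.73e-05, edgeR). The smallest gap was that of MCL1, at 0.22 ± 0.067 (adjusted p = 0.00826, edgeR), which kept its call whichever of the 6 libraries was left out. BAK1, at −0.31 ± 0.12 (adjusted p = 0.0296, edgeR), turned to 0.028 with the TMM factors left out. It was not called with the GC correction (−0.16, adjusted p = 0.078, edgeR), nor when any of the 3 cisplatin libraries or vancomycin replicate 3 was left out (adjusted p of 0.0518 to 0.12, edgeR). BCL2L11, at 0.24 ± 0.094 (adjusted p = 0.0318, edgeR), lost its call without cisplatin replicate 1 or 2 or vancomycin replicate 2 or 3 (adjusted p of 0.0502 to 0.146, edgeR).

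The wider pathway was read from 5 lists of genes outside the 10. The shares of all genes tested that were called higher and lower, 11.2% and 9.77% with iohexol, 29.2% and 30.6% with cisplatin and 29.0% and 28.8% with vancomycin, stand as the background for each list's counts. In lists this small many of the counts lie near those shares, and none is given as particular to its list. Changes of single genes in the lists are given without the GC correction, also those with vancomycin, whose libraries carried the tilt. Of 13 further BCL2 relatives, 10 were tested. With iohexol 1 rose and 1 fell (median log2 fold change −0.016, against 0.012 for all genes), with cisplatin 5 rose and 3 fell (median 0.22), and with vancomycin 5 rose and 3 fell (median 0.061). HRK, a BH3-only gene known from dying neurons, went from 4.93 to 5.65 CPM in the control group to 13.9 to 19.4 CPM with iohexol and 23.7 to 27.5 CPM with vancomycin. Those groups did not overlap, and HRK rose by 1.68 ± 0.17 with iohexol (adjusted p = 2.78e-05, edgeR) and 2.23 ± 0.14 with vancomycin (adjusted p = 3.58e-12, edgeR). BMF, whose product is tethered to the cytoskeleton in healthy cells, rose by 1.44 ± 0.13 with vancomycin (adjusted p = 1.37e-09, edgeR), and BCL2L15 rose by 3.37 ± 0.32 with cisplatin (adjusted p = 9.03e-08, edgeR) from 0.188 to 1.18 CPM in the control group to 6.59 to 7.56 CPM. BNIP3, a mitophagy receptor, fell by 0.30 ± 0.077 with iohexol and 1.23 ± 0.058 with cisplatin (adjusted p = 0.0171 and 8.55e-12, edgeR), and rose by 0.47 ± 0.084 with vancomycin (adjusted p = 3.66e-05, edgeR).

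Downstream of the membrane, 18 genes of the apoptosome, the caspase inhibitors and the released factors were tested. With iohexol 0 rose and 3 fell, with cisplatin 9 rose and 3 fell, and with vancomycin 6 rose and 4 fell, with medians of 0.0089, 0.18 and −0.020. CYCS, the gene of cytochrome c, rose by 0.59 ± 0.067 with cisplatin (adjusted p = 7.83e-07, edgeR), and HTRA2, a protease released from mitochondria, rose by 1.33 ± 0.11 with vancomycin (adjusted p = 6.18e-10, edgeR). APAF1, the scaffold of the apoptosome, fell with cisplatin (by 0.34 ± 0.087) and vancomycin (by 0.42 ± 0.10, adjusted p = 0.0031 and 0.00114, edgeR). BIRC2, a ubiquitin ligase of the IAP family, fell by 0.77 ± 0.13 with iohexol (adjusted p = 0.00146, edgeR). Among 9 partners at the outer membrane, 0 rose and 1 fell with iohexol, 4 and 1 with cisplatin, and 2 and 2 with vancomycin (medians −0.025, 0.099 and −0.020). VDAC1, the main channel of that membrane, fell by 0.49 ± 0.083 with iohexol and 0.46 ± 0.061 with cisplatin, and BAG1 and BAG3, co-chaperones first known as binding partners of BCL2, rose by 1.36 ± 0.12 and 0.99 ± 0.089 with vancomycin (adjusted p = 0.00143, 4.79e-06, 8.74e-10 and 1.56e-09, edgeR).

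Of 7 genes that act on MCL1 protein or its turnover, 1 rose and 0 fell with iohexol, 1 rose and 4 fell with cisplatin, and 0 rose and 6 fell with vancomycin, where 2 fell with the GC correction (medians −0.13, −0.28 and −0.38). HUWE1, the ubiquitin ligase also known as MULE, fell by 0.79 ± 0.058 with cisplatin and 0.54 ± 0.12 with vancomycin (adjusted p = 3.3e-09 and 0.000373, edgeR). USP9X, which removes ubiquitin from MCL1, fell by 0.46 ± 0.068 with cisplatin (adjusted p = 1.82e-05, edgeR), so ligase and opposing enzyme were both lower there. DUSP6, the ERK phosphatase, rose by 1.31 ± 0.10 with iohexol and 1.35 ± 0.070 with cisplatin (adjusted p = 3.21e-06 and 3.07e-11, edgeR).

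Transcription factors known to act on BH3-only genes numbered 11, of which 9 were tested. With iohexol 1 rose and 2 fell, with cisplatin 3 rose and 5 fell, and with vancomycin 5 rose and 3 fell (medians 0.058, −0.24 and 0.38). DDIT3, the gene of CHOP, rose by 1.26 ± 0.14 with iohexol (adjusted p = 6.9e-05, edgeR), and by 0.64 ± 0.11 and 1.34 ± 0.13 with cisplatin and vancomycin (adjusted p = 0.00012 and 2.79e-09, edgeR). JUN fell by 0.36 ± 0.11 with iohexol (adjusted p = 0.035, edgeR) and rose by 0.97 ± 0.088 with vancomycin (adjusted p = 1.53e-09, edgeR). E2F1 rose by 0.62 ± 0.066 with cisplatin and fell by 0.74 ± 0.091 with vancomycin (adjusted p = 3.09e-07 and 2.54e-07, edgeR).

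The cell cycle inhibitor gene CDKN1A rose with each drug, on the log2 scale by 0.66 ± 0.14, 1.55 ± 0.090 and 2.62 ± 0.10 with iohexol, cisplatin and vancomycin (adjusted p = 0.00609, 1.35e-10 and 5.05e-16, edgeR). MDM2, a ubiquitin ligase gene, was not called with any drug, at log2 differences of 0.11 ± 0.097, 0.077 ± 0.069 and −0.15 ± 0.10.

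Counts of these lists moved by more than 1.5 times without single libraries. Without iohexol replicate 3, the iohexol calls were 6 of the downstream genes and 3 of the outer membrane partners. The further BCL2 relatives kept 1 iohexol call without iohexol replicate 2, control replicate 1 or control replicate 2. Without control replicate 3, the outer membrane partners had 3 cisplatin calls, and without control replicate 2 the downstream genes had 6 vancomycin calls.

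Across the 12 libraries, the genes nearest in pattern to each member that changed by more than 1 on the log2 scale were sought by the root mean square (rms) difference of centred log2 CPM over 17072 genes. The median rms over all genes was 0.68 to 0.94. THRB (0.15), GPC4 (0.17) and ULK4 (0.18) were nearest to BCL2, and WNT7B (0.11), NF2 (0.13) and ADD2 (0.14) to BCL2L1. CNPY3 (0.10), CEBPD (0.16) and ERP29 (0.19) were nearest to BBC3. MXD1 (0.18), HSPA1A (0.18), which encodes an inducible heat shock protein, and RAB5IF (0.19) were nearest to PMAIP1. OST4, NAA38 (both 0.14) and FIS1 (0.15), which encodes a mitochondrial fission protein, were nearest to BAD. HSPA1A, for example, differed from its control mean by 0.18 with iohexol, 0.60 with cisplatin and 2.07 with vancomycin. These are descriptions over libraries that share depth and composition effects, and carry no p.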

How the data were processed

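Counts of reads per gene were deposited by the authors as whole numbers without normalization, with gene lengths in bases. The labels describe poly(A) selection. The submitters' processing notes name CASAVA 1.8, fastp, HISAT2 2.0.5, featureCounts 1.5.0-p3 and DESeq2 1.20.0. Neither a strand setting nor an annotation release is given in the sources used here. All 58735 identifiers matched GENCODE release 29, 58631 with the same GRCh38 position.

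From these counts, edgeR 4.0.16 in R 4.3.3 was run (TMM, filterByExpr with 10 counts and a total of 15, glmQLFit, glmQLFTest), in a separate fit per drug with the control group, which tested 15657, 15876 and 15819 genes, and in a fit of all 12 libraries for drug pairs (17073). Benjamini-Hochberg adjustment ran over all genes of a fit, and SE was the log2 fold change divided by the square root of F. The scripts were tested on simulated counts. CPM used total counts times TMM factors (0.885 to 1.13), and log2 CPM a prior count of 2. Groups and replicate numbers came from the labels, and no block was used. Alternatives were DESeq2 1.42.0, limma-voom (limma 3.58.1), other scalings and filters, a replicate block, leaving out each library and a GC offset per library. The study used limma, run here as an alternative. Without molecular identifiers, reads are not independent molecules, and floors cover counting error only.

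The members and lists were chosen with earlier results of these data known. All 10 members were named. From every other list, up to 2 genes per direction and drug with the smallest p among called genes without overlap between the groups could be named, and CDKN1A and MDM2 in any case. Some items of the rule and of the lists are not reported here. For each member past a log2 fold change of 1 or −1, the 3 nearest genes were named. Promoters are from RefSeq (GRCh38.p14).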

Additional observations from a re-analysis of the deposited data

How the results depend on the processing

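Of the 3 comparisons with control, the number of members called stayed within 1.5 times under all alternatives run for cisplatin (5 to 8 without single libraries) and vancomycin (7 to 8). For iohexol it was 4, and 1 to 6 without single libraries. With the replicate number as a replicate block it was 1 (MCL1), where PMAIP1, BID and BCL2L11 had adjusted p of 0.0569, 0.0585 and 0.102 (edgeR). Same-numbered libraries did not deviate together on average (mean r −0.021 over 18 pairs, 0.011 over the 36 others, and the 3 highest r joined libraries of different numbers). Single r ran from −0.18 to 0.10 and from −0.19 to 0.29, a spread too wide to show that the numbers carry no pairing. The block changed no other call against control. It lost BCL2L11 between cisplatin and vancomycin (adjusted p = 0.0519, edgeR). Among drug pairs, counts were 6 to 7 (cisplatin and iohexol), 10 (vancomycin and iohexol) and 7 to 10 (cisplatin and vancomycin) without single libraries.

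Signs turned in small differences, none of them called in that direction. Without single libraries, the iohexol difference ran from −0.0072 to 0.071 for BCL2, −0.28 to 0.030 for BCL2L1, −0.16 to 0.14 for BAK1 and −0.27 to 0.23 for BAD, and the cisplatin difference of BAD from −0.032 to 0.28. Cisplatin minus iohexol ran from −0.27 to 0.026 for BAX and −0.041 to 0.44 for BAD. Without control replicate 1 and iohexol replicate 3 together, the iohexol difference was −0.0087 for BCL2, 0.069 for BAK1 and 0.027 for BAD, and 0.028 for BAK1 with the GC offset added. By library size only, BAK1 was 0.054 and BAD 0.0016 with iohexol, BID 0.055 with cisplatin and MCL1 −0.0091 with vancomycin, while BAX was 0.012 in cisplatin minus iohexol and BAK1 0.028 in cisplatin minus vancomycin. Dropping TMM moved the median of all genes by 0.22 with cisplatin, and 8 members were then called (6 higher, 2 lower). The GC offset and the pair of libraries left out were chosen after seeing the data. The cause of these changes was not tested. BBC3 and BAD, with as few as 112 and 85 counts in a library, have the widest errors.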
